A study of Mus musculus with 12 samples.

Results

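The Notch pathway was examined through 10 genes of the 21859 in the deposited expression table, chosen by symbol as the receptors *Notch1* to *Notch4*, the ligands *Dll1*, *Dll4*, *Jag1* and *Jag2*, the DNA-binding factor *Rbpj* and the target *Hes1*. All 10 were found in the table, and all 10 passed the low-expression limit used for testing. RNA had been measured in GFRa1+/KIT- spermatogonia, the fraction of the mouse testis that holds the spermatogonial stem cells. The comparison asked how these genes differed between a testis kept in the scrotum and a testis held in the abdomen, the state called cryptorchidism.

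Each group carried the GFRa1-EGFP reporter, so sorting for EGFP and against KIT protein gave the cells, and the animals were adult. In the cryptorchid group (7 libraries) the left testis had been fixed surgically in the abdomen. In the control group (5 libraries) the right testis had stayed in the scrotum. Cells were taken on day 10 after surgery. The surgery was unilateral, so the side of the testis and the condition cannot be told apart. The labels call the control genotype WT and the other Cryptorchid, although both came from reporter mice. Tubules of cryptorchid testes were digested at a higher temperature than those of controls, so digestion temperature and condition cannot be told apart. Libraries were made from about 200 cells each with Smart-seq2, without molecular identifiers, and the sources used here do not tie libraries to animals, so *P*-values measure the spread between these libraries.

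Notch receptors are membrane proteins that are cut when a ligand of the Delta-like or Jagged family on a neighboring cell binds them, which frees a fragment that enters the nucleus. There it joins RBPJ and turns on targets such as the *Hes* and *Hey* repressors, whereas RBPJ without the fragment represses them. In blood vessels *Dll4* and *Notch4* are best known from endothelial cells and *Notch3* from mural cells, and in the testis signaling between germ cells and Sertoli cells through Jagged ligands has been described.

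RBPJ binds the core TGGGAA, so the sequence ahead of the start was searched for it on both strands. The RefSeq promoter table of build GRCm38.p6 has 11 windows for the members other than *Hes1*. The core was in 2 of these windows of 250 bases, both of *Rbpj*. These 2 windows overlap, and the match in the second is also 1 of the 2 matches in the first. Of all 32851 promoter windows of that length, 21.6% held it. The *Dll4* stretch is shown because *Dll4* was the member with the called difference. The *Rbpj* stretch is shown because it held the core, which is written in capitals. The *Dll4* stretch is chr2:119325534-119325783 on the plus strand, the 250 bases ahead of its start, and part of it is exon of the noncoding *Gm14207* on the other strand. The *Rbpj* stretch is chr5:53590096-53590213 on the plus strand, 118 bases in which GENCODE annotates no exon. It is the first part of a window ahead of a RefSeq start that lies inside the annotated gene. The other match of this window, on the minus strand, lies in exon and is not shown. A match is only a match of letters in this window.
Dll4: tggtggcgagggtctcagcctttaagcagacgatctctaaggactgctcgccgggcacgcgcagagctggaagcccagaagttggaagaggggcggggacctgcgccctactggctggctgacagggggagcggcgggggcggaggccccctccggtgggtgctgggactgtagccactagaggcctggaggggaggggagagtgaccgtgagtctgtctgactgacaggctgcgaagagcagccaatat
Rbpj: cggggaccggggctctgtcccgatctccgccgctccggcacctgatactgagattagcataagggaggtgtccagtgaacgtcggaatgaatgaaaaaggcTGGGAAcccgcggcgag

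Values are the deposited log2 RPM, reads scaled to the library's total on a log2 scale, with 4511730 to 24345368 reads on genes per control library and 3306771 to 20027902 per cryptorchid library. The sorted cells carried the RNA of undifferentiated spermatogonia in all 12 libraries, with *Gfra1* at 6.80 to 9.59 and *Zbtb16* at 7.42 to 9.07 log2 RPM. *Kit* RNA was also present, at 3.67 to 5.74 log2 RPM, in cells sorted against KIT protein. The labels give no batch, and 2 sets of libraries, called technical here, were read from the values. They were replicates 1 to 3 (3 control and 3 cryptorchid) and replicates 4 and above (2 control and 4 cryptorchid). Reads on genes were 74.5-94.0% of the total implied by the RPM values in the replicates 1 to 3 and 94.8-99.9% in the others. These shares nearly meet, at control replicate 1 (94.0%) and cryptorchid replicate 4 (94.8%). Reads on genes did not overlap, at 6800360 or more in replicates 1 to 3 and 5481947 or fewer in the others. The weights that limma gave each library by its spread were 0.79 or lower in replicates 1 to 3 and 1.26 or higher in the others. What caused the sets to differ is not known. Differences are also given within each set.

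Of the 10 Notch genes, 1 was higher at 2-fold and an unadjusted *P* of 0.05 in the limma fit, *Dll4*, and 0 were lower. Among all 16932 genes tested, 603 (3.56%) were higher and 399 (2.36%) lower by the same rule. After Benjamini-Hochberg adjustment over all genes in limma, 0 members and 2 genes in all (0.0118%) passed 0.05. At an unadjusted limma *P* of 0.05 the member count was 1 of 10, beside 1606 genes (9.49%) in all, and by the exact rank sum test it was 0, beside 1630 genes in all. Libraries of the groups overlapped for all 10 members, whereas 142 genes (0.839%) had no overlap. The median log2 difference, cryptorchid minus control, was -0.06 over the 10 members and 0.10 over all genes tested. The call for *Dll4* was lost in 6 of 12 fits that left out 1 library, without control replicate 1 or 3 or cryptorchid replicate 3, 4, 6 or 7, so that the member count was then 0.

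**Figure D1:**
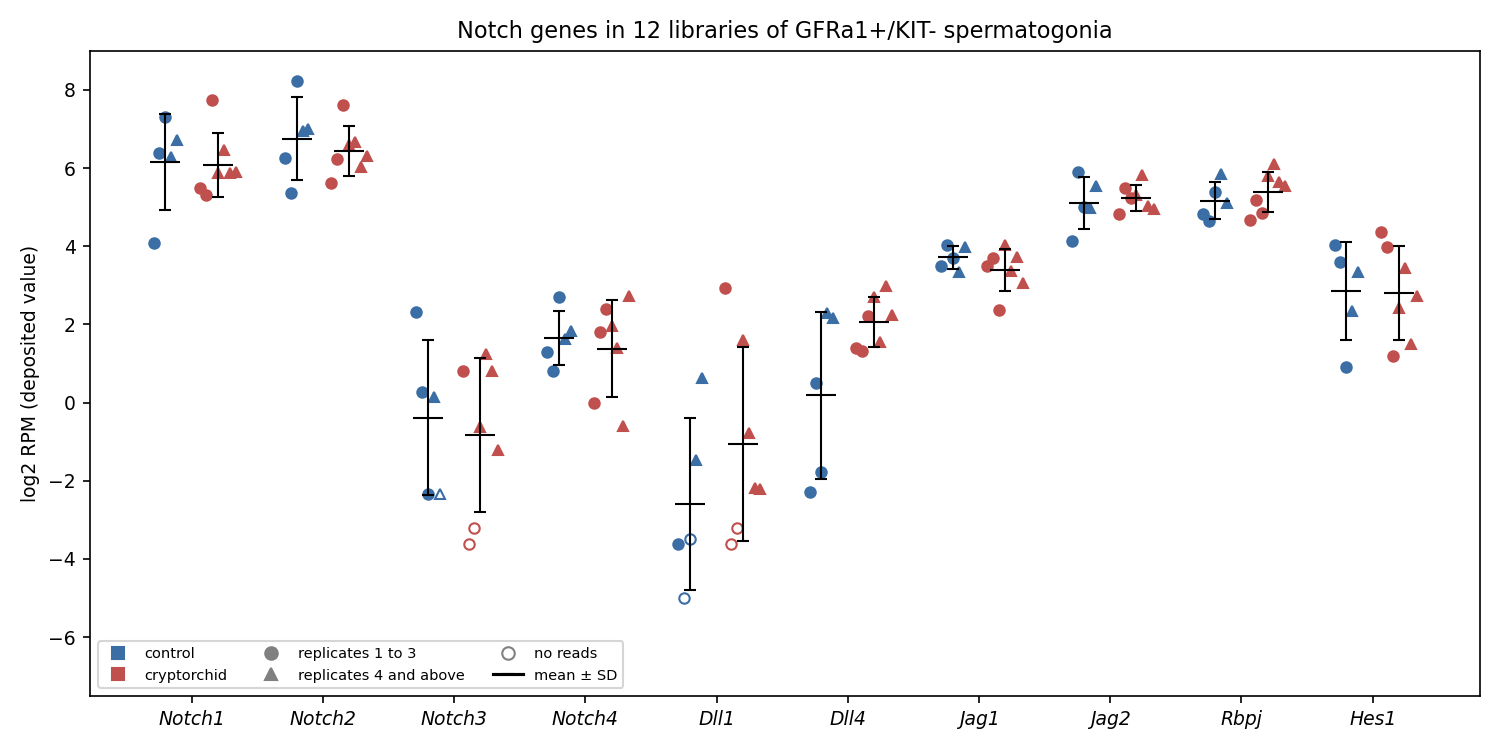
Deposited log2 RPM of the 10 Notch genes in 5 control (blue) and 7 cryptorchid (red) libraries, with circles for replicates 1 to 3, triangles for replicates 4 and above, open symbols for libraries without reads and black bars for the mean ± SD. The groups overlap for all 10 genes, and the *Dll4* points of control replicates 1, 2 and 3 lie below those of all 7 cryptorchid libraries.

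Gene positions are given on GRCm38 (mm10). The receptor *Notch1* (chr2:26457903-26516663, minus strand) was at 4.09, 6.39, 7.31, 6.28 and 6.72 log2 RPM in control replicates 1 to 5. In the cryptorchid libraries it was at 5.30 at the lowest, 5.87 at the median and 7.75 at the highest. The cryptorchid values lay inside the control range except for the highest, cryptorchid replicate 3. Cryptorchid minus control, the log2 difference was -0.07 (95% interval -1.09 to 0.95, limma *P* = 0.883, adjusted 0.975, exact rank sum *P* = 0.53), and within the sets it was 0.25 in replicates 1 to 3 and -0.48 in the others.

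*Notch2* (chr3:98013527-98150361, plus strand), the other receptor with high RNA here, was at 6.26, 5.35, 8.23, 6.94 and 6.99 log2 RPM in control replicates 1 to 5. In the cryptorchid group it ran from 5.62 through a median of 6.30 to 7.61. All of these lay within the control range. The group means differed on the log2 scale by -0.32 (95% interval -1.19 to 0.55, limma *P* = 0.45, adjusted 0.846, exact rank sum *P* = 0.53). In replicates 4 and above alone it was -0.57 (limma adjusted *P* = 0.233), less than 2-fold, the unadjusted limma *P* being 0.0308, and in replicates 1 to 3 it was -0.13.

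*Notch3* (chr17:32120820-32166852, minus strand) had few reads, 0 to 121 in controls and 0 to 39 in cryptorchid libraries. Its control values were 2.31, 0.28, -2.35, 0.13 and -2.33 log2 RPM, the last of a library without reads. Its cryptorchid values were -3.63 at the lowest, -0.63 at the median and 1.23 at the highest, with 2 of 7 libraries without reads. The groups overlapped, and the log2 difference of -0.45 (95% interval -2.77 to 1.88, limma *P* = 0.692, adjusted 0.925, exact rank sum *P* = 0.876) was -2.10 in replicates 1 to 3 and 1.15 in the others. A library without reads carries the lowest value of that library, so these differences depend on depth.

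*Notch4* (chr17:34564268-34588503, plus strand), read 16 to 66 times in controls, was at 1.30, 0.80, 2.69, 1.63 and 1.83 log2 RPM there. In the cryptorchid group it was at -0.60 at the lowest, 1.80 at the median and 2.73 at the highest, with cryptorchid replicates 1 and 6 below all controls. Between the group means the log2 difference was -0.27 (95% interval -1.75 to 1.22, limma *P* = 0.707, adjusted 0.928, exact rank sum *P* = 1), with -0.21 in replicates 1 to 3 and -0.36 in the others.

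Of the ligands, *Dll4* (chr2:119325784-119335962, plus strand) gave the only call. Its product is the Delta-like ligand that restrains sprouting of blood vessels. In control replicates 1 to 5 *Dll4* was at -2.28, 0.51, -1.77, 2.30 and 2.15 log2 RPM, from 3 to 41 reads. In the cryptorchid libraries it was at 1.33 at the lowest, 2.21 at the median and 2.98 at the highest, from 10 to 59 reads. Control replicates 4 and 5 were among the cryptorchid values, whereas control replicates 1, 2 and 3 were below all of them, and all 7 cryptorchid libraries were above the control median.

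The mean of *Dll4* rose from 0.18 ± 2.14 (SD, n = 5) to 2.06 ± 0.65 log2 RPM (SD, n = 7). This is a log2 difference of 1.88 (SE 0.84, 95% interval 0.11 to 3.64), or 3.68-fold, with a limma *P* of 0.0383 unadjusted and 0.49 adjusted over all genes. The fold of 3.68 is between means of log2 values, in which the low control replicates 1 and 3 had 5 and 3 reads. Without logs, the mean of *Dll4* was 2.25 RPM in controls and 4.55 RPM in cryptorchid libraries. The exact two-sided rank sum test gave *P* = 0.149. In replicates 1 to 3 alone the log2 difference was 2.83 (unadjusted limma *P* of 0.0469, adjusted *P* = 1), and in replicates 4 and above it was 0.14 (unadjusted limma *P* of 0.846, adjusted *P* = 0.939). The difference between the sets, -2.68 (95% interval -5.57 to 0.20), had an unadjusted limma *P* of 0.0659, which adjusted over all genes was 1. Without control replicate 1 the fold was 2.40 (limma adjusted *P* = 0.755) and without control replicate 3 it was 2.62 (limma adjusted *P* = 0.513), and over the 6 fits without a library that lost the call *P* was 0.0541 to 0.135. On log2(RPM + 1) values the difference was 1.0 and with library weights it was 1.07, and neither was called (unadjusted limma *P* of 0.0513 and 0.168). With a replicate block, a term for each replicate number, it was 1.66 and also not called (unadjusted limma *P* of 0.0592, adjusted *P* = 0.247).

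**Figure D2:**
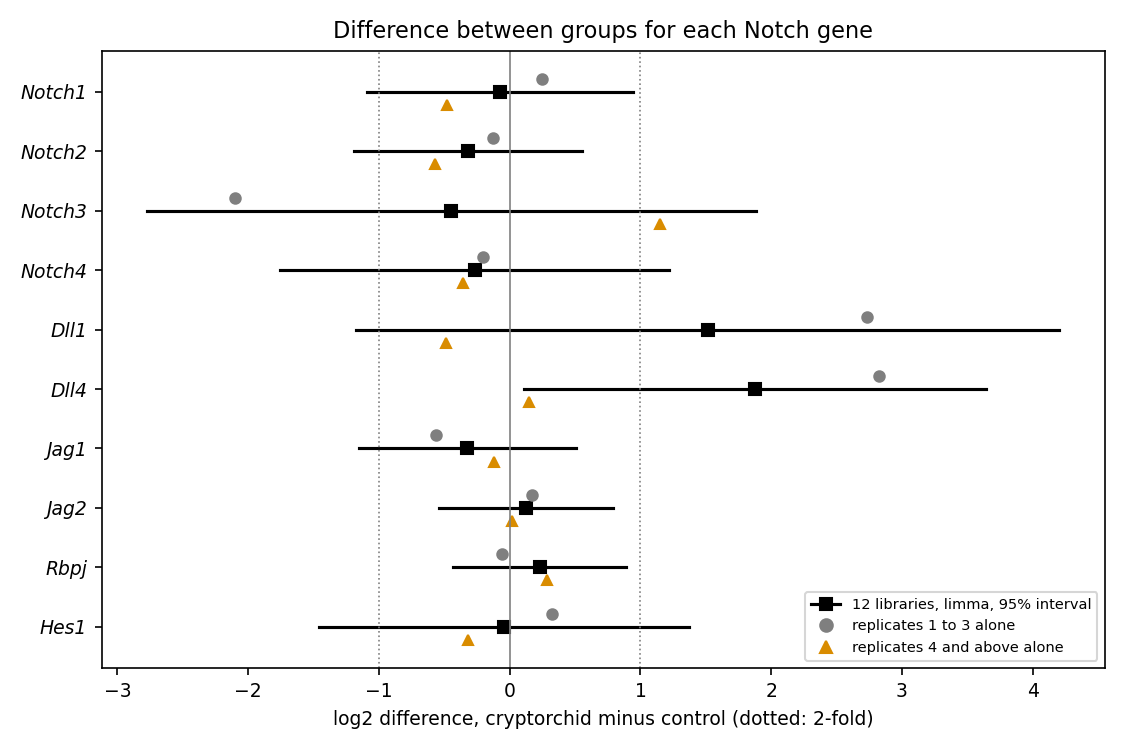
Log2 difference, cryptorchid minus control, of each Notch gene, with black squares and lines for the 12 libraries and their 95% interval, grey circles for replicates 1 to 3 alone and orange triangles for replicates 4 and above alone. The interval of *Dll4* (0.11 to 3.64) is the only one that leaves out 0, and its values within the sets are 2.83 and 0.14.

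Some markers of endothelial cells, in which *Dll4* is also known to be made, were higher in the cryptorchid group, although interstitial cells had been cleared from the tubules and the cells sorted. Of 12 such markers 11 were tested, and 4 of these were higher by the call and 0 lower, beside 3.56% and 2.36% of all genes tested. Of the 4, 2 reached the low-expression limit only through the cryptorchid group. *Cdh5*, the cadherin of endothelial junctions, rose by a log2 difference of 2.01 (limma *P* = 0.00807, adjusted 0.359, exact *P* = 0.0732). *Vwf*, which carries a clotting factor, rose by 1.80 (limma *P* = 0.0254, adjusted 0.456, exact *P* = 0.0732), a call lost without control replicate 2, 3 or 4 or cryptorchid replicate 1, with differences of 1.25 to 2.25 over the 12 fits. *Tie1*, an endothelial receptor kinase, had no reads in 4 of 5 controls and 1 of 7 cryptorchid libraries, with at most 1 and 27 reads. *Robo4* had no reads in 4 of 5 controls and 3 of 7 cryptorchid libraries, with at most 4 and 61 reads. As *Tie1* and *Robo4* passed only through the group where they are high, and their sizes rest on the value given to libraries without reads, no difference is given for them. *Pecam1* differed by 0.39 (limma *P* = 0.545, adjusted 0.882, exact *P* = 0.639), and *Esam*, without reads in 10 of 12 libraries, was not tested. Other markers with reads in all 12 libraries were not called either. *Tek* differed by 0.05, *Eng* by 0.175, *Erg* by 0.004 and *Plvap* by -0.66 on the log2 scale. Of the 11 markers tested 10 had positive differences, beside 56.7% of all genes.

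The 12 endothelial markers together made 101 to 354 RPM in controls and 110 to 350 RPM in cryptorchid libraries, of which *Erg* alone made 50.5 to 326 RPM and 37.7 to 307 RPM. The other 11 markers summed to 27.8 to 50.1 RPM in controls, with a median of 37.9, and to 30.9 to 71.8 RPM in cryptorchid libraries, with a median of 42.2, a split made after the values were seen. The part of endothelial cells in the *Dll4* difference was not tested, and in RNA of sorted bulk cells more cells of a type and more RNA per cell cannot be told apart.

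**Figure D3:**
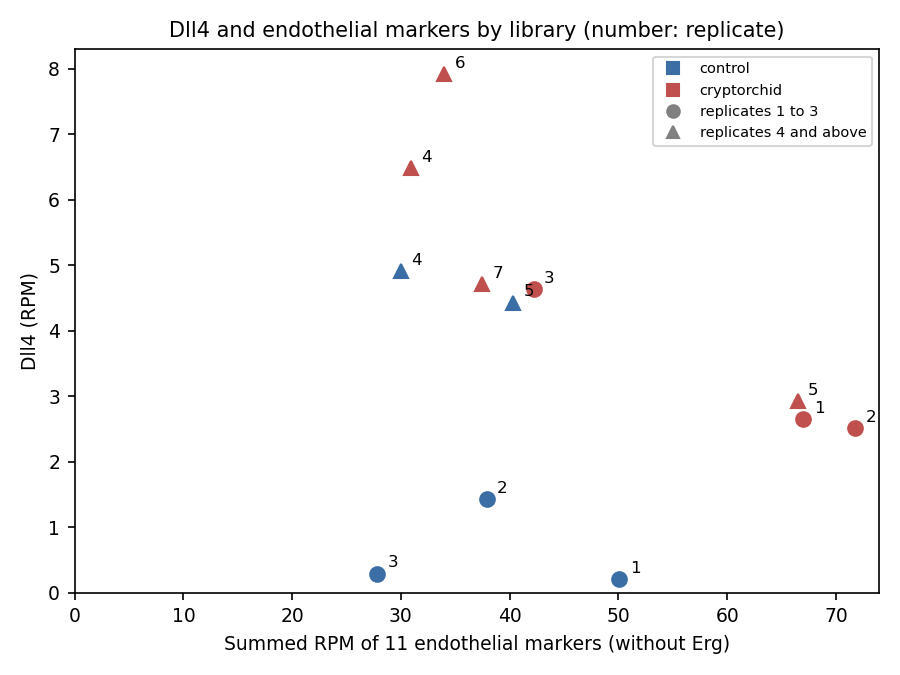
*Dll4* RPM of each library against the summed RPM of 11 endothelial markers, in 5 control (blue) and 7 cryptorchid (red) libraries, numbered by replicate, with circles for replicates 1 to 3 and triangles for the others. *Dll4* runs from 0.205 to 7.91 RPM and the sums from 27.8 to 71.8 RPM, and the groups overlap on both axes.

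*Dll1* (chr17:15367354-15376872, minus strand), a Delta-like ligand, was close to the limit of detection. Its control values were -3.61, -5.00, -3.50, -1.46 and 0.63 log2 RPM, with 2 libraries without reads and at most 7 reads in any. The cryptorchid values were -3.63 at the lowest, -2.19 at the median and 2.94 at the highest, again with 2 libraries without reads. Only cryptorchid replicates 1 and 4, with 171 and 14 reads, were above the highest control. Cryptorchid minus control, the log2 difference was 1.52 (95% interval -1.17 to 4.20, limma *P* = 0.251, adjusted 0.741, exact rank sum *P* = 0.343), and it was 2.73 in replicates 1 to 3 and -0.48 in the others. *Dll1* passed the low-expression limit only through the cryptorchid group, with a mean of 1.70 RPM there and 0.423 RPM in controls.

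*Jag1* (chr2:137081456-137116644, minus strand) varied little in controls, with 3.49, 4.03, 3.71, 3.35 and 3.98 log2 RPM. In the cryptorchid group it was at 2.36 at the lowest, 3.50 at the median and 4.02 at the highest, with cryptorchid replicates 3 and 7 below all controls. The group means differed on the log2 scale by -0.33 (95% interval -1.16 to 0.50, limma *P* = 0.421, adjusted 0.834, exact rank sum *P* = 0.432), with -0.56 in replicates 1 to 3 and -0.12 in the others.

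*Jag2* (chr12:112907819-112929776, minus strand) had the most RNA of the ligands. It was at 4.14, 5.90, 4.99, 4.97 and 5.55 log2 RPM in controls and at 4.83, 5.24 and 5.81 at the lowest, median and highest of the cryptorchid group. The cryptorchid range lay inside the control range. Between the group means the log2 difference was 0.12 (95% interval -0.54 to 0.79, limma *P* = 0.697, adjusted 0.926, exact rank sum *P* = 1), with 0.17 in replicates 1 to 3 and 0.01 in the others.

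*Rbpj* (chr5:53466152-53657362, plus strand), the factor that carries the signal to DNA, was at 4.83, 4.64, 5.39, 5.85 and 5.11 log2 RPM in control replicates 1 to 5. In the cryptorchid group it was at 4.66 at the lowest, 5.54 at the median and 6.09 at the highest, with cryptorchid replicate 5 above all controls. Cryptorchid minus control, the log2 difference was 0.23 (95% interval -0.43 to 0.89, limma *P* = 0.476, adjusted 0.856, exact rank sum *P* = 0.432). Within the sets it was -0.06 and 0.28, and the replicates 4 and above were higher than the replicates 1 to 3 in both groups, at 5.48 and 4.95 log2 RPM in the control means and 5.76 and 4.90 log2 RPM in the cryptorchid means.

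*Hes1* (chr16:30064384-30067796, plus strand), the target repressor, was at 4.04, 3.60, 0.90, 2.35 and 3.35 log2 RPM in control replicates 1 to 5. In the cryptorchid libraries it was at 1.18 at the lowest, 2.73 at the median and 4.36 at the highest. The groups covered almost the same range, of 3.47 log2 units over the 12 libraries, and differed in the mean by -0.04 (95% interval -1.46 to 1.37, limma *P* = 0.95, adjusted 0.99, exact rank sum *P* = 1). In replicates 1 to 3 the log2 difference was 0.33 and in the others -0.32. The interval of *Hes1* thus takes in 2-fold changes in both directions, as do those of *Notch3*, *Notch4* and *Dll1*, whereas those of *Jag2* and *Rbpj* stay within 2-fold.

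Levels between genes were compared as RPM per kb of annotated exon, over the union of the exons of a gene's protein-coding transcripts. The order of the medians over 12 libraries was *Notch2* (8.38 RPM per kb), *Notch1* (7.03), *Jag2* (6.93), *Hes1* (5.73), *Rbpj* (5.47), *Jag1* (2.16), *Dll4* (0.982), *Notch4* (0.50), *Notch3* (0.108) and *Dll1* (0.0573). Of the neighbors in this order, *Notch2* exceeded *Notch1* in 10 of 12 libraries, *Notch1* exceeded *Jag2* in 5, *Jag2* exceeded *Hes1* in 9 and *Hes1* exceeded *Rbpj* in 5. *Rbpj* exceeded *Jag1* in 12 of 12 libraries, *Jag1* exceeded *Dll4* in 11, *Dll4* exceeded *Notch4* in 10, *Notch4* exceeded *Notch3* in 9 and *Notch3* exceeded *Dll1* in 6, with libraries without reads for the last pair. Among these neighbors, only *Rbpj* and *Jag1* were thus in the same order in all 12 libraries.

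Among receptor RNA per kb, *Notch2* made a median of 51.4% and *Notch1* 43.9% over the 12 libraries, whereas *Notch4* made 2.21% and *Notch3* 0.587%. Among ligand RNA per kb, *Jag2* made a median of 68.0% and *Jag1* 19.6%. *Dll4* made 0.906% to 14% of ligand RNA in controls, with a median of 2.53%, and 5.67% to 19.2% in cryptorchid libraries, with a median of 13%. These ranges of *Dll4* overlapped, and *Jag2* stayed the ligand with the most RNA per kb in all 12 libraries, at 54.0% or above.

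**Figure D4:**
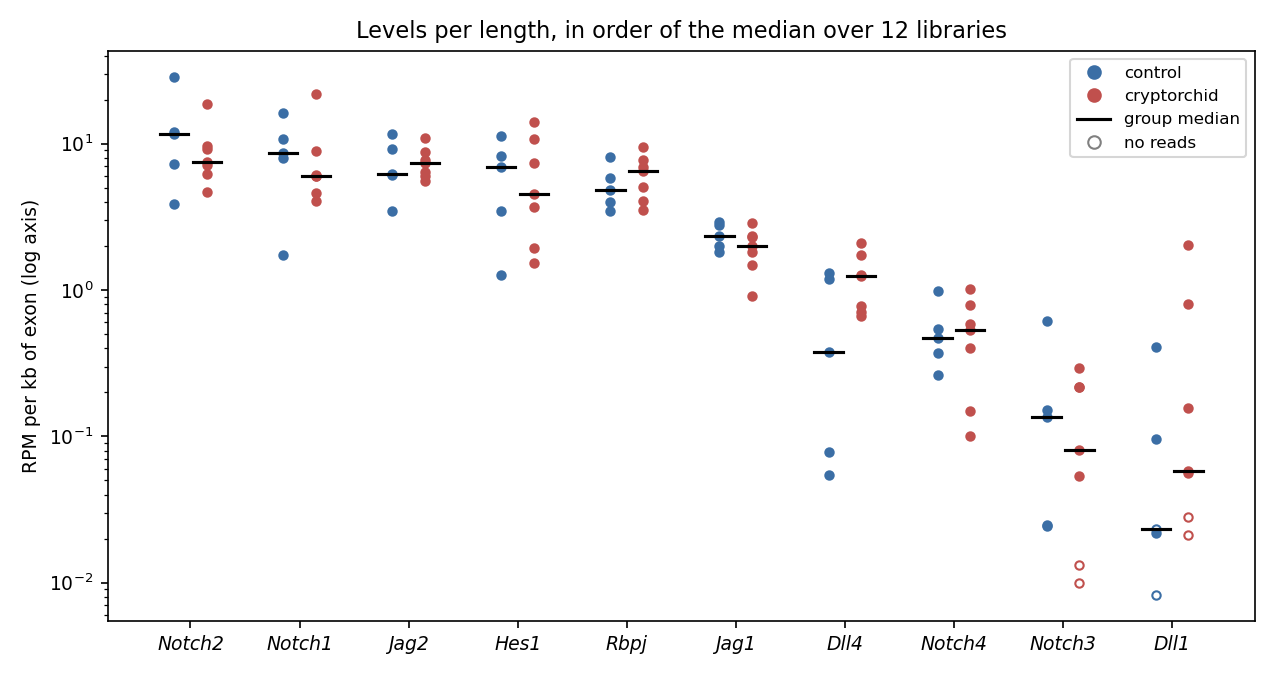
Levels of the 10 Notch genes as RPM per kb of exon on a log axis, in order of the median over 12 libraries, with blue points for 5 control and red points for 7 cryptorchid libraries, open points for libraries without reads and black lines for group medians. The 5 genes at the left have medians of 5.47 to 8.38 RPM per kb, and *Notch3* and *Dll1* at the right have 0.108 and 0.0573.

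The exons of *Notch1* overlap those of *0610009E02Rik* and *Gm13568*, those of *Notch3* overlap *Gm17276*, those of *Dll1* overlap *A930024N18Rik* and those of *Dll4* overlap *Gm14207*, all on the other strand. As the counting strand is not stated, reads from these noncoding genes cannot be told apart from those of the members. *Notch2* overlaps *Gm42820* on the same strand. *Notch4*, *Jag1*, *Jag2*, *Rbpj* and *Hes1* have no such overlap.

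The genes most like *Dll4* over the 12 libraries, among 12563 genes with reads in every library and log2 of the mean RPM above 2, were *Muc3*, *Zfp780b* and *Clcn3*, each with a Spearman's rho of 0.888. The genes most like *Hes1*, among 12562, were *Marveld2* (rho 0.986), *Flot1* (rho 0.958) and *Anp32e* (rho 0.951). These are descriptions over libraries that differ in depth and technical set, and they are the highest of all such values computed. *Marveld2* differed by 0.04 on the log2 scale between the groups (limma adjusted *P* = 0.981) and *Muc3* by 1.04 (limma adjusted *P* = 0.459).

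Of 72 other genes of the Notch pathway, 67 were tested, of which 1 was higher and 1 lower at 2-fold and an unadjusted limma *P* of 0.05, beside 3.56% and 2.36% of all genes tested. The median log2 difference of the 67 was 0.11, beside 0.10 over all genes tested, and 0 passed after adjustment (4 of 67 at an unadjusted limma *P* of 0.05, beside 9.49% of all genes). *Hes2*, *Hes3*, *Hes7*, *Myc* and *Ptcra* were too low to test. The number called was 1 without control replicate 5 or cryptorchid replicate 4 or 7, and 4 without cryptorchid replicate 3.

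*Gata3*, a transcription factor known as a Notch target in T cells, fell. It was at 0.83 to 2.24 log2 RPM in controls, with a median of 1.54, and at -3.22 to 1.51 log2 RPM in cryptorchid libraries, with a median of -2.36 and 3 of 7 libraries without reads. The groups overlapped. The group means differed on the log2 scale by -2.79 (SE 0.91, limma *P* = 0.00688, adjusted 0.349, exact rank sum *P* = 0.0101), with -3.66 in replicates 1 to 3 and -1.93 in the others, and it was called in 12 of 12 fits that left out 1 library. At 136 reads or fewer in any library, its size depends on the value given to libraries without reads.

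*Tle2*, a Groucho-family corepressor, rose from a control median of 0.35 log2 RPM to a cryptorchid median of 2.40 log2 RPM. Between the group means the log2 difference was 1.77 (limma *P* = 0.0469, adjusted 0.522), with an exact rank sum *P* of 0.149. Control replicates overlapped the cryptorchid libraries, with a highest control of 3.02 log2 RPM, and the call held in 4 of 12 fits that left out 1 library, with differences of 1.11 to 2.41. The related *Tle3* differed by -0.85 (limma *P* = 0.0116, adjusted 0.38, exact *P* = 0.0732) and *Cir1*, a corepressor that binds RBPJ, by 0.78 (limma *P* = 0.0331, adjusted 0.479, exact *P* = 0.0303), both less than 2-fold.

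**Figure D5:**
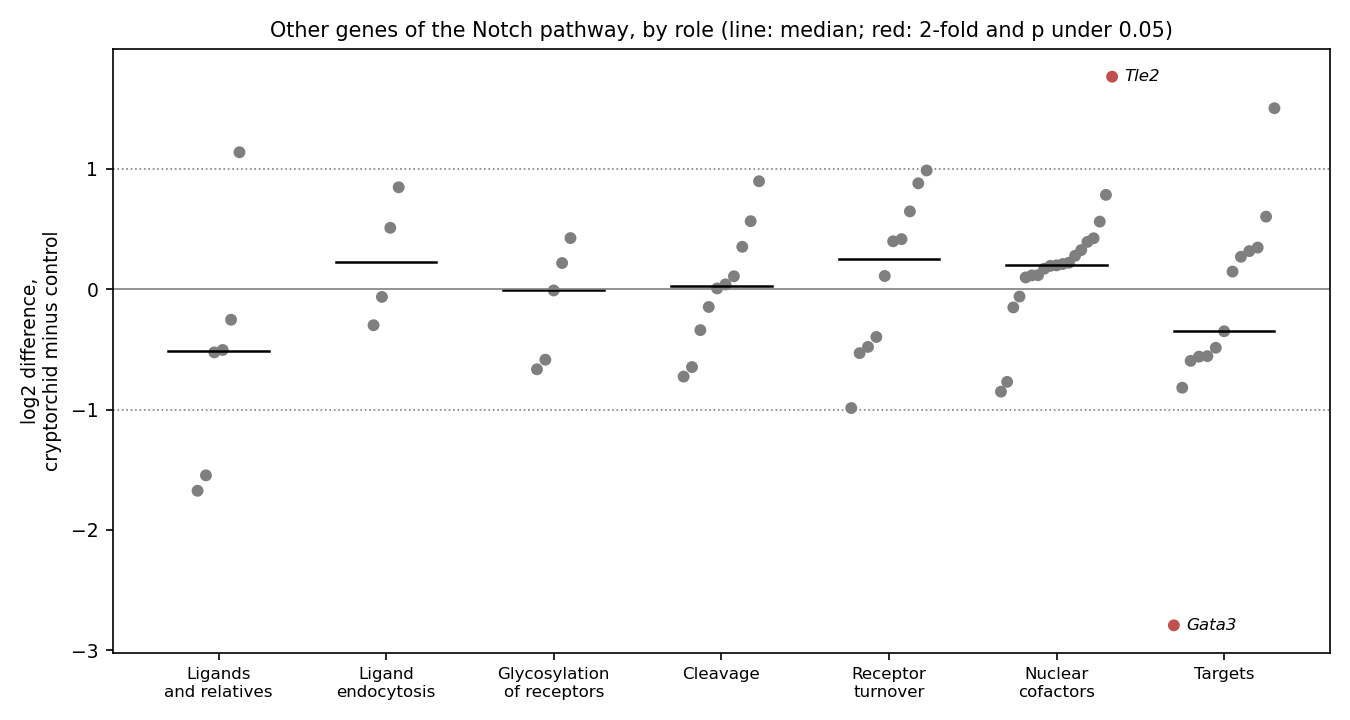
Log2 difference, cryptorchid minus control, of 67 other Notch pathway genes grouped by role, with a line at each role's median and red points for genes at 2-fold and an unadjusted limma *P* under 0.05. The red points are *Tle2* (1.77) among the nuclear cofactors and *Gata3* (-2.79) among the targets.

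By role, 0 of 6 ligands and relatives were called, with a median log2 difference of -0.52. The one with the most RNA, *Egfl7*, was at 3.83 ± 0.75 log2 RPM in controls (SD, n = 5) and 3.57 ± 0.61 in cryptorchid libraries (SD, n = 7). Of the 4 ligases that prompt ligand endocytosis 0 were called, with *Mib1* at 5.96 ± 0.63 and 6.47 ± 0.45 log2 RPM. Of the 5 enzymes that put sugars on receptors 0 were called, with *Poglut1* at 6.0 ± 0.49 and 5.99 ± 0.38 log2 RPM.

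Of the 10 genes for cleavage of the receptor 0 were called, and *Adam10*, the protease that makes the ligand-induced cut, was at 6.58 ± 0.68 log2 RPM in controls and 6.58 ± 0.71 in cryptorchid libraries. Of 10 genes for receptor turnover 0 were called, with the endocytic inhibitor *Numb* at 7.15 ± 0.51 and 7.55 ± 0.47 log2 RPM. Of the 19 nuclear cofactors 1 was higher and 0 lower (3 at an unadjusted limma *P* of 0.05), and 15 had positive differences, beside 56.7% of all genes, with a median of 0.20. Among them the demethylase *Kdm5a* was at 7.91 ± 0.83 and 8.01 ± 0.45 log2 RPM. Of the 13 targets tested 6 had positive differences, with a median of -0.35, and *Ccnd1*, a cyclin of the early cell cycle, was at 4.99 ± 0.48 and 5.31 ± 0.50 log2 RPM.

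Beyond endothelium, markers of other cells also moved between the groups. Over all 87 markers of 9 cell types, 74 were tested, of which 8 were higher and 2 lower, beside 3.56% and 2.36% of all genes tested. The 8 include *Tie1*, *Robo4* and *Des*, which passed the low-expression limit only through the cryptorchid group. After adjustment 0 passed, and 11 did at an unadjusted limma *P* of 0.05, beside 9.5% of all genes. *Pdgfra* (log2 difference 1.43) of mural and myoid cells, *Mrc1* (2.02) of macrophages and *Stra8* (1.09) of differentiating spermatogonia rose. The sperm protamines *Prm1* (-2.40) and *Prm2* (-3.73) fell. A single gene need not stand for its list, and *Stra8* went against the median of its own. Of 6 markers of differentiating spermatogonia, 2 had positive differences, with a median of -0.48. Of 8 markers of spermatocytes and spermatids, 3 had positive differences, with a median of -1.375. Positive differences were seen in 8 of 9 mural and myoid markers tested and 5 of 7 macrophage markers tested, beside 56.7% of all genes. They were also seen in 10 of 11 endothelial, 9 of 11 Sertoli cell and 3 of 4 Leydig cell markers tested. Of the markers of undifferentiated spermatogonia 10 of 16 were positive. Of the Sertoli and Leydig cell markers 0 were called. The *Stra8* call was lost without control replicate 2 or 3 or cryptorchid replicate 4 or 5, with 0.96 to 1.24 over the 12 fits. *Des* of mural and myoid cells was also called but passed the low-expression limit only through the cryptorchid group, with no reads in 3 of 5 controls and 1 of 7 cryptorchid libraries and at most 3 and 38 reads. The mural and myoid markers summed to 13.8 to 42.3 RPM in controls (median 38.3) and 33.0 to 74.1 RPM in cryptorchid libraries (median 37.3), and the macrophage markers to 4.51 to 23.8 RPM (median 17.8) and 11.3 to 40.0 RPM (median 29.3). The part of these cells in the values of the Notch genes was not tested.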

How the data were processed

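RNA was measured in 12 Smart-seq2 libraries. The authors trimmed reads with Trim Galore 0.6.6, mapped them to mm10 with HISAT2 2.1.0, and used SeqMonk to count reads per gene, and the deposited values are log2 RPM. The Notch genes and the gene lists were chosen with earlier results of these data known. Whole reads were recovered from the steps of the values, with a library's lowest value taken as 0.9 reads. They served for depth, which covers counting error only, and entered 1 alternative, limma-voom with TMM scaling.

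The 16932 genes whose mean RPM exceeded -1 on the log2 scale entered a limma fit (version 3.58.1, R 4.3.3; lmFit, then eBayes with a mean-variance trend) of the log2 RPM as deposited, with Benjamini-Hochberg adjustment over all of them. The limit and the call (2-fold, unadjusted *P* of 0.05) follow the study, which tested counts, a unit these values are not. An exact two-sided rank sum test over all divisions of the libraries stood beside it, with a smallest possible *P* of 0.00253. The test was checked on simulated data.

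All 10 Notch genes are named, and so are the list genes that were called, the list gene of each role with the most RNA, and the 3 genes most like *Dll4* and *Hes1*. *Pecam1*, *Tek*, *Eng*, *Erg*, *Plvap*, *Esam*, *Tle3*, *Cir1* and the spermatogonial markers were named after their values were seen. Gene positions and exon lengths are from GENCODE on GRCm38, the same build as mm10, and promoters from RefSeq on GRCm38.p6. The alternatives were other scales, floors, normalizations and filters, library weights, a replicate block, the technical set, and each library left out. An interaction of group and set and the endothelial sum without *Erg* were added after the values were seen. Python 3.11.15, numpy 2.4.6, pandas 2.3.3, scipy 1.17.1 and matplotlib 3.10.9 were used.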

Additional observations from a re-analysis of the deposited data

How the results depend on the processing

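Under 25 alternatives the log2 difference of *Dll4* stayed positive, and it was called in 14. It was not called on log2(RPM + 1) values (1.0, limma *P* of 0.0513), with library weights (1.07, limma *P* of 0.168), in replicates 4 and above alone or by the exact test, and it ran from 1.26 to 2.41 with 1 library left out. The number of Notch genes called was 0 in those limma fits, with the filter at 2 (which removed *Dll4*) and with the replicate block, and 0 to 1 with 1 library left out. *Jag1* kept its sign under every alternative run, and *Rbpj* under all but replicates 1 to 3 alone (-0.0574).

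Other signs turned. *Hes1* was at 0.0218 with a term for the set and 0.33 in replicates 1 to 3, *Notch1* at 0.25 in replicates 1 to 3, *Notch3* at 0.21 with library weights and 1.15 in replicates 4 and above, and *Dll1* at -0.48 there. With 1 library left out the log2 differences ran from -0.53 to 0.26 for *Hes1*, -0.12 to 0.32 for *Jag2*, -0.59 to 0.22 for *Notch1*, -0.67 to 0.0505 for *Notch2*, -0.94 to 0.23 for *Notch3* and -0.49 to 0.0612 for *Notch4*. None of these differences passed the test, and the cause of the turns was not tested.

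The number of pathway genes called was 1 with median centring, quantile normalization or no filter, 6 with library weights, 0 with the filter at 2, 5 in replicates 4 and above, and 1 to 4 with 1 library left out. Over all genes, 385 were higher with the filter at 2 and 287 in replicates 1 to 3. Genes called lower numbered 626 with voom on recovered reads, 703 with library weights, 635 with a set term and 705 in replicates 4 and above. Adjusted calls numbered 4 with median centring, 4 with quantile normalization, 10 with voom, 476 with library weights, 46 with a set term, 0 in either set alone, and 0 to 9 with 1 library left out. Of the genes called, 60.2% were higher in the main test, 51.5% with median centring, 45.8% with quantile normalization and 51.8% with voom.

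Libraries of the groups with the same replicate number deviated together with r = 0.347, 0.363, 0.411, 0.250 and 0.0488 for numbers 1 to 5. The highest r of these controls with a cryptorchid library of another number was 0.179, 0.251, 0.0745, 0.239 and 0.274. Number 4 was thus barely ahead and number 5 was not, so the numbers do not establish a pairing. For 4 of the 5 numbers each library correlated best with its own number, which is a hint from the data only. The surgery left the other testis of the same mouse as a control, so pairs of libraries are possible. The sources used here do not tie libraries to animals, and the main test used no pairing. With the replicate block, 900 genes were lower and 949 passed adjustment, *Dll4* was at 1.66 (limma *P* of 0.0592, adjusted *P* = 0.247), *Hes1* at 0.23 and *Notch1* at 0.0101.

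Depth limits *Dll1* and *Notch3* most, with 3 reads or fewer in 9 and 6 of 12 libraries.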

Other observations

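*Hes1* was higher in the cryptorchid than in the control library of the same replicate number for 5 of 5 numbers, by 0.08 to 0.37 on the log2 scale, beside a range of 3.47 over the 12 libraries. This was seen after the values were known, and the numbers are not established as pairs. The count of 5 of 5 was not tested, and how many of all genes reach it was not counted. With the replicate block the *Hes1* difference was 0.23 (unadjusted limma *P* of 0.595).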
